A study of Mus musculus with 24 samples.

Results

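The 9 genes described here, Cftr, Slc12a2, Kcnq1, Kcne3, Kcnn4, Clcn2, Ano1, Atp1b1 and Slc9a3r1, encode Cftr itself and the channels, cotransporter, pump subunit and scaffold that work with it in epithelial chloride secretion. The list is a list of names with no threshold on a measured value, drawn up with earlier results of these data known, and holds 9 of the 54146 genes in the deposited tables. RNA of mouse small intestinal organoids, which are cultures of epithelial cells grown from crypts, was sequenced in 2 separate experiments of 12 libraries, with 4 groups of 3 libraries each. In the first, organoids of 4 genotypes were compared, namely WT, Cdk8-/-, Cdk19-/- and the double knockout Cdk8-/-/Cdk19-/-, each after 7 days in 600 nM 4-hydroxytamoxifen. In the second, organoids described as WT in the study's text were kept in DMSO, the solvent, or in Senexin B, an inhibitor of the kinases CDK8 and CDK19, for 16 h or 24 h, and the labels describe this RNA as depleted of ribosomal RNA. CDK8 and CDK19 are paralogous kinases that bind the Mediator complex of RNA polymerase II. The Cdk8-/- and double knockout organoids share a CreERT2 recombinase driven by the Villin promoter, which deletes exon 2 of floxed Cdk8 once 4-hydroxytamoxifen is added. Cdk19 was mutated with lentiviral Cas9 and a guide to exon 1, and organoids were then picked singly for clonal expansion, so a genotype can rest on few clones. Reads on Esr1, whose sequence is part of CreERT2, averaged 0.254 and 0.221 CPM (reads of a gene scaled to a common library size) in WT and Cdk19-/- libraries and 20.1 and 22.5 in Cdk8-/- and double knockout libraries, so loss of Cdk8 and presence of the Cre line cannot be told apart.

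Chloride secretion draws water into the gut lumen and keeps mucus fluid. In a secreting crypt cell the sodium pump, of which Atp1b1 is the beta subunit, holds sodium low, and the cotransporter Slc12a2 uses that gradient to load chloride across the basolateral membrane. Potassium leaves again through basolateral channels, the cAMP-regulated channel of Kcnq1 with its subunit Kcne3 and the calcium-activated Kcnn4, which keeps the inside negative and drives chloride out. Chloride then crosses the apical membrane mainly through Cftr, which opens when protein kinase A phosphorylates it. Ano1 is a calcium-activated chloride channel, Clcn2 a chloride channel that opens on hyperpolarisation, and Slc9a3r1 a PDZ scaffold that ties Cftr and other transporters to ezrin. Mutations of CFTR cause cystic fibrosis, which in the intestine brings thick mucus and obstruction.

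Between 14636861 and 15473180 reads were counted on genes in each genotype library and between 27075937 and 28405118 in each Senexin B library. Levels are CPM after TMM normalisation within an experiment, and levels of the 2 experiments are not compared by a test. Genes were tested with edgeR's quasi-likelihood test on all genes of an experiment, and a Benjamini-Hochberg adjusted p-value under 0.05 is called deregulated. All 9 genes passed the filter on low counts in both experiments. The labels name the cell type of the genotype samples as 4T1, a mouse mammary carcinoma line, while naming the tissue as intestinal organoids. All 7 of 7 small intestinal epithelial markers were expressed, at 6212 to 9182 CPM in sum, whereas the 6 mammary markers summed to 34.4 to 112 CPM. Of the latter 1, Prlr, passed the filter, and Csn2 had 0 counts in each genotype library. Cdk8 had 42.5, 43.2 and 35.8 CPM in WT and 45.8, 57.3 and 42.4 CPM in the libraries labelled Cdk8-/-, a count over all exons that does not show the loss of a single exon. Cdk19 had 47.6, 50.1 and 48.6 CPM in WT, 48.8, 28.1 and 28.3 CPM in the libraries labelled Cdk19-/- and 27.0, 23.8 and 51.7 CPM in those labelled double knockout. Replicate 1 of Cdk19-/- and replicate 3 of the double knockout were thus at the WT level of Cdk19, and the calls that rest on them were also made without both. Labels say that conditions were biological triplicates, but not whether these came from separate animals.

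Per kilobase of exon, which allows levels of different genes to be set beside each other, Atp1b1 stood first in WT at 394 ± 12.5 CPM per kb (mean ± SD, n = 3). Slc9a3r1 followed at 108 ± 5.73, Slc12a2 at 95.1 ± 1.89 and Kcnq1 at 88.3 ± 3.54 CPM per kb, and none of these 4 neighbours overlapped in any library. Cftr, at 27.2 ± 7.66 CPM per kb, overlapped with Kcnn4, at 22.8 ± 0.504. Clcn2 came next at 16.5 ± 0.788, then Kcne3 at 8.85 ± 0.697, and Ano1 was lowest at 3.10 ± 1.16 CPM per kb. Where both kinases were targeted Cftr had moved from the fifth to the eighth place, at 17.7 ± 0.779 CPM per kb, below Clcn2 at 20.1 ± 1.33 and Kcne3 at 23.5 ± 6.85, of which Clcn2 did not overlap with it.

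Promoter windows in RefSeq (GRCm38.p6, 250 bases before to 50 after a start site) were found for 7 of the 9 genes. Those of Cftr, of both members that rose in the double knockout and of the member that rose most with Senexin B are printed, because these genes carry the results below. Capitals mark the GC box GGGCGG and the CCAAT box, on either strand, where a match on the other strand reads CCGCCC or ATTGG. Of all 32851 RefSeq windows of this length, 35.7% hold a GC box and 37.4% a CCAAT box.
Cftr (chr6:18170437-18170736, plus strand): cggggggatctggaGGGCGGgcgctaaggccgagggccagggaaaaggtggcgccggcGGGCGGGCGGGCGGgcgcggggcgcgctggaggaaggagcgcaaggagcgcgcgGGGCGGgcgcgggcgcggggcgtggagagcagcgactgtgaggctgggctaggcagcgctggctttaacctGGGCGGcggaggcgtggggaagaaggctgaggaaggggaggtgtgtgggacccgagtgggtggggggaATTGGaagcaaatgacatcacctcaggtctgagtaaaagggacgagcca
Kcne3 (chr7:100176420-100176719, plus strand): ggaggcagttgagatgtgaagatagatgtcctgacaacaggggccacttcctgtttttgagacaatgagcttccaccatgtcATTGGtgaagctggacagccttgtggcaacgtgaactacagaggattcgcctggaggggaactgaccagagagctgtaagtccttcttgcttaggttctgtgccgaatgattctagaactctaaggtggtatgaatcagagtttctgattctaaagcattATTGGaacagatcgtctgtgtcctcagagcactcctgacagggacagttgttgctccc
Slc9a3r1 (chr11:115163091-115163390, plus strand): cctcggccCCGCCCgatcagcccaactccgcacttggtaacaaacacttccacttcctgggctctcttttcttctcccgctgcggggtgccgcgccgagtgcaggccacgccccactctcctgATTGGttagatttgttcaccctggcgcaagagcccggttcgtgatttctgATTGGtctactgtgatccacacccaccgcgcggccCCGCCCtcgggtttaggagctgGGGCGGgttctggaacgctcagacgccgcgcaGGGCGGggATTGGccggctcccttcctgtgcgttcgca
Ano1 (chr7:144738524-144738823, minus strand): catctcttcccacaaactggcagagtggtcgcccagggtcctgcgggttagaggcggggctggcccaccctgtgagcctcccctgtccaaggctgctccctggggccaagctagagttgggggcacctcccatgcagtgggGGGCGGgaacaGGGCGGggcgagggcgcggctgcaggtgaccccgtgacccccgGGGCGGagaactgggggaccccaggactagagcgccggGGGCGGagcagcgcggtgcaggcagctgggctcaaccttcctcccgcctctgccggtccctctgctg
The window of Cftr had 6 GC boxes, some overlapping, and 1 CCAAT box, with 71.3% G and C. That of Kcne3, the gene of the largest rise in the genotypes, had 0 GC boxes and 2 CCAAT boxes at 48.3% G and C, below the median of all windows of 52.7%. Slc9a3r1 had 4 GC and 3 CCAAT boxes, and Ano1 4 GC boxes and 0 CCAAT boxes. The TATA box TATAAA and the cAMP response half-site TGACG, held by 13.6% and 20.8% of all windows, had no match on either strand in these 4 windows. RefSeq holds 2 windows for Kcne3, of which the one nearest the GENCODE start, 168 bases from it, is printed and the other was not examined. The RefSeq start of Ano1 lies 13401 bases inside the outermost start that GENCODE gives for the gene, so its window may not be the promoter in use.

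To see how the loss of either kinase or both altered the secretory machinery, each genotype was compared with WT. Cftr (chromosome 6, 18170687 to 18322768) had 249, 242 and 143 CPM in the WT libraries. In Cdk8-/- it had 169, 188 and 118 CPM, in the libraries labelled Cdk19-/- 234, 263 and 267 CPM and in those labelled double knockout 142, 130.4 and 139.9 CPM. Levels in the libraries labelled double knockout were close to each other and below those of every WT library, by a margin that came down to less than a CPM against WT replicate 3, which stood apart from the other WT libraries. Mean Cftr was 137 ± 6.05 CPM in the double knockout against 211 ± 59.4 CPM in WT (SD, n = 3), which is 0.651 of the WT level in the fit, and it did not pass the threshold (log2 fold change -0.62, standard error 0.20, edgeR adjusted p = 0.0505). It passed with the Wald test of DESeq2 (adjusted p = 0.0203), and without WT replicate 3 the log2 fold change was -0.83 (edgeR adjusted p = 0.00884). Without both libraries that had Cdk19 at the WT level it was -0.64 (edgeR adjusted p = 0.0888). Against the libraries labelled Cdk19-/-, where it was highest, Cftr was lower in the double knockout (log2 fold change -0.89, standard error 0.20, edgeR adjusted p = 0.00716), and the difference was -0.98 (edgeR adjusted p = 0.0186) without both doubtful libraries. Cdk8-/- libraries overlapped with WT (log2 fold change -0.41, standard error 0.20, edgeR adjusted p = 0.254). In bulk RNA, fewer cells that express a gene and less of its RNA per cell cannot be told apart, here and for each gene below.

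Kcnq1 and Kcne3, the pore and the accessory subunit of the same basolateral potassium channel, went opposite ways in the double knockout. Kcnq1 (chromosome 7, 143106362 to 143427042) had 364, 374 and 345 CPM in WT and 239, 285 and 269.6 CPM in the libraries labelled double knockout. Levels of 301, 267 and 313 CPM were found in Cdk8-/- and 414, 472 and 469 CPM in the libraries labelled Cdk19-/-. Kcnq1 fell in the double knockout (log2 fold change -0.45, standard error 0.096, edgeR adjusted p = 0.00833), with no overlap between the groups, though the adjusted p-value was 0.0503 without WT replicate 2. Its libraries did not overlap with WT in the single knockouts either, with lower values in Cdk8-/- and higher ones in Cdk19-/-, but the log2 fold changes of -0.30 (edgeR adjusted p = 0.0956) and 0.32 (adjusted p = 0.206) did not pass. With the Wald test of DESeq2 the first of these had an adjusted p of 0.0474. Between double knockout and Cdk19-/- libraries Kcnq1 differed too (log2 fold change -0.77, standard error 0.096, edgeR adjusted p = 0.000312), also without both doubtful libraries (-0.86, adjusted p = 0.000508).

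Kcne3 (chromosome 7, 100176502 to 100184869) gave the largest change of the 9 genes. It had 16.8, 16.0 and 14.4 CPM in WT and 18.8, 15.0 and 14.4 CPM in the libraries labelled Cdk19-/-, against 33.0, 63.1 and 38.1 CPM in Cdk8-/- and 50.9, 46.6 and 27.9 CPM in those labelled double knockout. All 6 libraries with the Cre line were above all 6 without it. Kcne3 rose 2.84-fold in Cdk8-/- (log2 fold change 1.51, standard error 0.26, edgeR adjusted p = 0.00763) and 2.65-fold in the double knockout (log2 fold change 1.41, standard error 0.26, edgeR adjusted p = 0.00377), and both calls held when each library was left out in turn and under every other setting tried. The 2 groups differed from each other by -0.099 on the log2 scale (standard error 0.24, edgeR adjusted p = 0.894). The spread within both groups was wide, since Cdk8-/- replicate 2 and double knockout replicate 3 stood high and low in them.

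The ratio of Kcne3 to Kcnq1, both per kb of exon, was 0.10 ± 0.00538 in WT and 0.0827 ± 0.0190 in the libraries labelled Cdk19-/- (SD, n = 3). It was 0.359 ± 0.16 in Cdk8-/- and 0.368 ± 0.126 in those labelled double knockout, so that there were fewer reads of the subunit than of the pore gene in each library of the experiment. For Cdk8-/- and for the double knockout against WT, the exact permutation test gave p = 0.1, two-sided, the smallest this test can give for 3 libraries against 3, so it cannot pass 0.05 here.

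**Figure D1:**
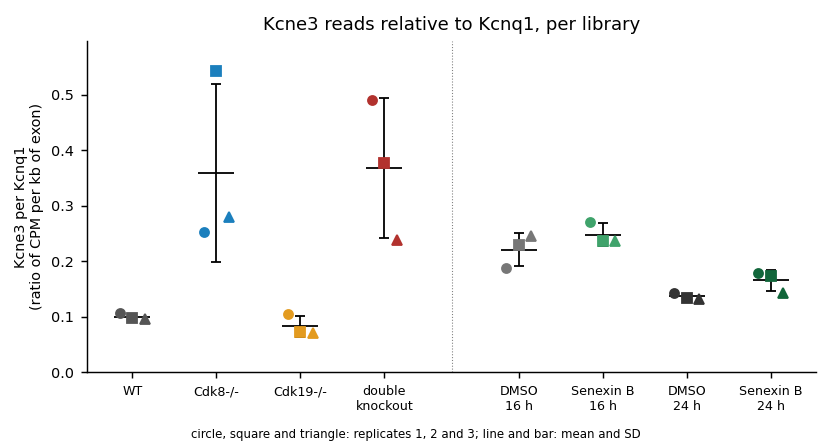
Ratio of Kcne3 to Kcnq1 in each library, each gene in CPM per kb of exon (y axis, starting at 0), by group, with means and SD of 3 libraries, genotype libraries left and Senexin B libraries right of the dotted line. Points of Cdk8-/- and double knockout lie between 0.239 and 0.543, above each WT and Cdk19-/- point.

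Slc9a3r1 (chromosome 11, 115163341 to 115181181), the scaffold gene, had 197, 212 and 218 CPM in WT and 373, 342 and 366 CPM in the libraries labelled double knockout, which lay well apart. In Cdk8-/- it had 263, 224 and 344 CPM and in the libraries labelled Cdk19-/- 187, 144 and 158 CPM, above and below all WT libraries respectively. The gene rose 1.73-fold in the double knockout (log2 fold change 0.79, standard error 0.14, edgeR adjusted p = 0.00351), a call that held under each alternative and with each library left out. Its log2 fold changes in Cdk8-/- and Cdk19-/-, 0.41 (edgeR adjusted p = 0.117) and -0.36 (adjusted p = 0.366), did not pass, but that in Cdk8-/- had an adjusted p of 0.0426 without Cdk8-/- replicate 2. From the libraries labelled Cdk19-/- to those labelled double knockout the difference was 1.14 on the log2 scale (standard error 0.14, edgeR adjusted p = 0.000312), and 1.23 without both doubtful libraries (adjusted p = 0.000699).

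The other chloride channels of the set did not pass in any genotype against WT in the main edgeR fit. Clcn2 (chromosome 16, 20702964 to 20717746) had 101, 103 and 94.2 CPM in WT, 94.6, 82.9 and 109.8 CPM in Cdk8-/-, 94.1, 81.6 and 85.5 CPM in the libraries labelled Cdk19-/- and 122, 113 and 128 CPM in those labelled double knockout. The last group lay above WT without overlap but did not pass (log2 fold change 0.28, standard error 0.10, edgeR adjusted p = 0.0810). It passed in 2 of 14 alternatives, among them reads counted regardless of strand (edgeR adjusted p = 0.0443). Against Cdk19-/- libraries Clcn2 was higher in the double knockout (log2 fold change 0.48, edgeR adjusted p = 0.00631), and the adjusted p was 0.0175 without both doubtful libraries. Ano1 (chromosome 7, 144588549 to 144751974) had 13.7, 16.8 and 27.5 CPM in WT, 32.8, 23.9 and 33.8 CPM in Cdk8-/-, 11.1, 16.0 and 17.5 CPM in the libraries labelled Cdk19-/- and 19.9, 22.7 and 33.5 CPM in those labelled double knockout. Its groups overlapped with WT in each case, with log2 fold changes of 0.64, -0.38 and 0.39 and standard errors of 0.27, 0.28 and 0.27. WT replicate 3, the WT library lowest in Cftr, was the highest in Ano1.

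Chloride entry, the calcium-activated potassium exit and the pump subunit did not pass in any genotype against WT. Slc12a2 (chromosome 18, 57878678 to 57946821) had 1045, 1055 and 1015 CPM in WT and 931, 903 and 1010.1 CPM in the libraries labelled double knockout, -0.13 on the log2 scale (standard error 0.10, edgeR adjusted p = 0.414), with no overlap between them. It had 1069, 1223 and 1033 CPM in Cdk8-/- and 1003, 1245 and 1148 CPM in the libraries labelled Cdk19-/-. Kcnn4 (chromosome 7, 24370263 to 24386690) ranged from 93.7 to 128 CPM over the 12 libraries, and each group overlapped with WT. Its log2 fold change in the double knockout was -0.17 (standard error 0.10). Atp1b1 (chromosome 1, 164437109 to 164458355) had 1217, 1251 and 1174 CPM in WT and 1414, 1347 and 1230.4 CPM in the libraries labelled double knockout, 0.13 on the log2 scale (standard error 0.089, edgeR adjusted p = 0.333), and these groups overlapped. It had 1284, 1182 and 1209 CPM in Cdk8-/- and 1198, 1121 and 1095 CPM in the libraries labelled Cdk19-/-.

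**Figure D2:**
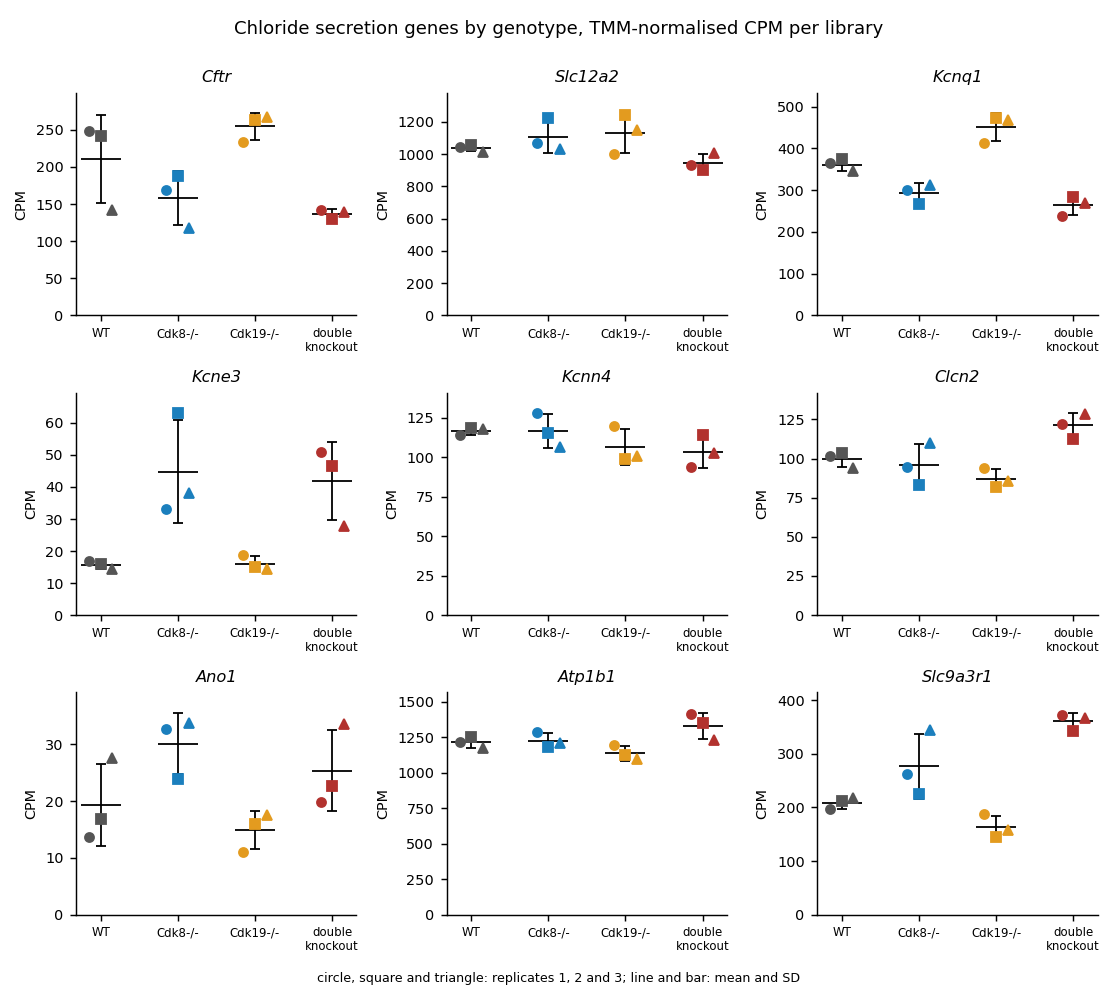
TMM-normalised CPM (y axes, starting at 0) of the 9 genes in each of the 12 genotype libraries, with means and SD of 3 libraries. Kcne3 is high in Cdk8-/- and double knockout, Slc9a3r1 is highest and Kcnq1 lowest in the double knockout, and Cftr in WT replicate 3 lies near the double knockout.

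Counted over the set, 1 of 9 genes (Kcne3) was deregulated in Cdk8-/-, where 5.15% of all 15602 genes tested were. In Cdk19-/- 0 of 9 passed edgeR's test and the background was 0%, but the background was 4.21% without both libraries at the WT level of Cdk19, 3.27% without Cdk19-/- replicate 1 alone and 2.01% with DESeq2. Without both, again 0 of 9 passed. Over all 12 libraries, 2 members had an unadjusted p-value under 0.05 in Cdk19-/-, namely Kcnq1 and Slc9a3r1, and DESeq2 called 0. In the double knockout 3 of 9 passed against a background of 17.3%, with 2 higher (background 9.41%) and 1 lower (background 7.90%). The same 3 genes passed without both libraries at the WT level of Cdk19, at a background of 19.0%. The median log2 fold change of the 9 genes was 0.013 in Cdk8-/-, -0.093 in Cdk19-/- and 0.13 in the double knockout, beside 0.01, -0.017 and -0.009 over all genes tested. These comparisons share the WT libraries.

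Double knockout and Cdk19-/- libraries, which differ by the Cdk8 deletion and the Cre line, differed in 5 of 9 genes, Cftr, Kcnq1, Kcne3, Clcn2 and Slc9a3r1, against a background of 25.3%. Without both doubtful libraries 7 of 9 passed, with Slc12a2 and Atp1b1 added, at a background of 28.5%. Between the double knockout and Cdk8-/-, both with the Cre line, edgeR found a difference in 0 of 9 genes at a background of 0.0256%, and DESeq2 in 0 of 9 at 2.99%. With edgeR 2 members, Clcn2 and Slc9a3r1, had an unadjusted p-value under 0.05. Without Cdk8-/- replicate 3 these 2 passed, with edgeR adjusted p-values of 0.0267 and 0.0253, in a fit where 5.28% of all genes passed. Whether the double knockout departed from the sum of the single knockouts was tested as its own contrast, which 0 of 9 genes passed with edgeR at a background of 0.0256%. Without both doubtful libraries 0 of 9 passed as well, though the background was then 4.60%, and without Cdk19-/- replicate 1 alone 1 of 9 passed at 2.93%. An unadjusted p-value under 0.05 was found for 4 members. The departure was 0.74 on the log2 scale for Slc9a3r1, 0.53 for Clcn2, -0.47 for Kcnq1 and -0.35 for Slc12a2, with standard errors of 0.20, 0.15, 0.14 and 0.15. DESeq2 called the first 3 of these, at a background of 3.45%.

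**Figure D3:**
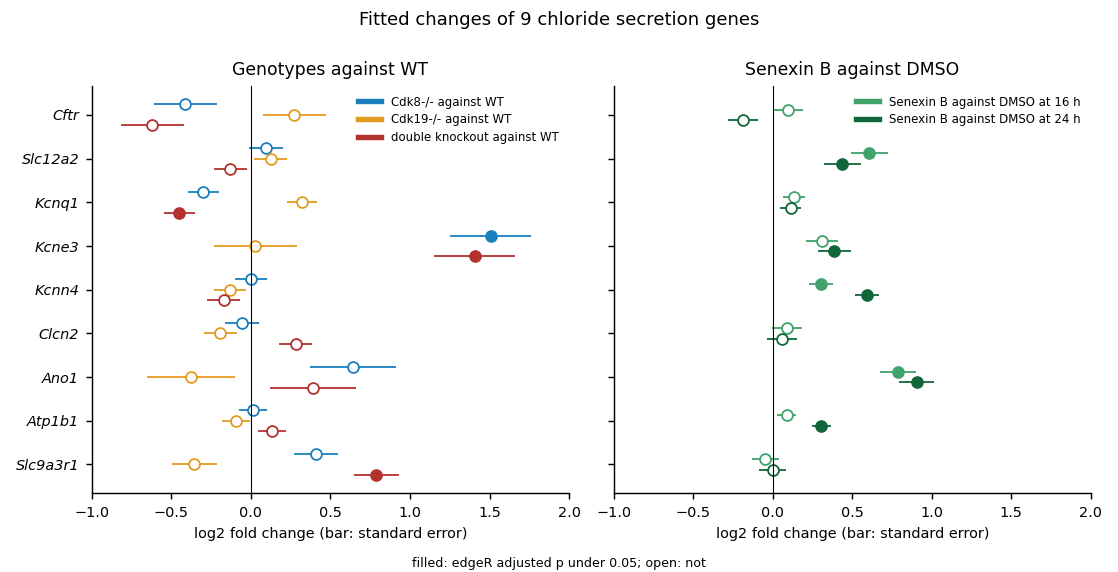
Fitted log2 fold changes (x axis, bars are standard errors) of the 9 genes in the genotypes against WT (left) and in Senexin B against DMSO (right), filled where the edgeR adjusted p-value was under 0.05. Kcne3, at 1.51 and 1.41, lies furthest from 0 on the left and Ano1, at 0.79 and 0.91, on the right.

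Several lists of cell type markers moved with the same groups. Their counts stand beside 5.15% of all genes called in Cdk8-/- and 17.3% in the double knockout (9.41% higher and 7.90% lower). Absorptive enterocyte markers summed to 6251 to 6847 CPM in WT libraries and 10216 to 14821 CPM in those labelled double knockout, where 5 of 8 rose. Paneth cell markers rose in 6 of 6 cases there, with sums of 1288 to 1706 CPM in WT and 2544 to 5200.5 CPM in the double knockout, and in 6 of 6 in Cdk8-/-, at 3956 to 5259.6 CPM. Stem cell markers, a list that includes Slc12a2, fell in 4 of 6 cases in the double knockout and summed to 3504 to 3879 CPM in WT and 2791 to 2908 CPM there. Goblet cell markers rose in 3 of 7 cases in Cdk8-/- and 2 of 7 in the double knockout. Cycling cell markers fell in 2 of 5 cases in the double knockout, at 1065 to 1140.4 CPM in WT and 722 to 826 CPM there, and tuft cell markers in 2 of 4, at 48.1 to 75.9 and 19.2 to 48.6 CPM. Enteroendocrine markers had 0 of 6 called with edgeR in Cdk8-/- and in the double knockout. In Cdk8-/- 1 of 8 enterocyte markers was higher and 1 of 6 stem cell markers lower. Of cycling and tuft cell markers 0 of 5 and 0 of 4 were called there. Each marker of these lists passed the filter on low counts except 1 of 5 tuft cell markers. The part of these shifts in the changes of Kcne3, Kcnq1, Slc9a3r1 and Cftr was not tested. Markers of fibroblasts and smooth muscle summed to at most 4.33 CPM in any library of either experiment, with Col3a1 at 0 in each genotype library, and those of immune and endothelial cells to at most 5.80 and 7.08 CPM. Markers of interstitial cells of Cajal, which express Ano1 in the gut wall, summed to 46.1 to 118 CPM in genotype libraries. In Senexin B libraries they summed to 56.2 to 122 CPM. Of these 4 markers 2 passed the filter, Kit held most of the reads and Gucy1b1 had 0 counts in each genotype library. Of the 2 tested, 1 was higher in Cdk8-/- and in the double knockout. The part of such cells in the reads of Ano1 was not tested.

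Genes that act with the set were examined from lists of the same pathway, to be read against the 9.41% of all genes that were higher and the 7.90% that were lower in the double knockout. Other chloride channels rose in 6 of 22 tested cases in the double knockout and fell in 0, with a median log2 fold change of 0.30 beside -0.009 over all genes. Clca4b, of the family of calcium-activated chloride channel regulators, rose from 157 ± 2.35 to 711 ± 174 CPM (log2 fold change 2.18, standard error 0.31, edgeR adjusted p = 0.00123), although its reads may be shared with near-identical Clca4 copies. Clic5, found in microvilli with ezrin, rose by 1.07 (adjusted p = 0.00171) and Clcn5, an endosomal chloride-proton exchanger, by 0.90 (adjusted p = 0.00239) on the log2 scale. Among other potassium channels 1 of 9 rose, the large-conductance Kcnma1, from 1.26 ± 0.406 to 4.30 ± 0.944 CPM. None of 5 sodium pump subunits tested passed in either direction with edgeR, and 0 had an unadjusted p-value under 0.05.

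Kinases of the cascade that activates Slc12a2 were divided in the libraries labelled double knockout. Stk39, which encodes the kinase SPAK, rose by 0.44 (edgeR adjusted p = 0.0355), while Wnk4 and Wnk2, of the family that acts upstream of it, fell by 0.56 (adjusted p = 0.0226) and 0.37 (adjusted p = 0.0400) on the log2 scale. With Slc12a9, a cotransporter of poorly known function that rose by 0.39, they were the 4 of 11 genes called on that list. Scaffold, trafficking and quality control genes of Cftr rose in 8 of 25 cases, Slc9a3r1 among them, and fell in 0, with a median of 0.15. The PDZ scaffold Pdzk1 rose from 13.7 ± 3.02 to 29.2 ± 5.70 CPM (log2 fold change 1.09, standard error 0.19, edgeR adjusted p = 0.00272), and with reads of both strands its log2 fold change was 1.96 (adjusted p = 0.00411). The vesicle fusion genes Snap23 and Stx3 rose by 0.57 (adjusted p = 0.00144) and 0.55 (adjusted p = 0.0256) on the log2 scale.

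Of the genes of second messenger control, 5 of 28 rose and 1 fell in the double knockout. Guca2b, which encodes uroguanylin, the ligand of guanylate cyclase C, rose from 235 ± 38.3 to 421 ± 42.3 CPM (log2 fold change 0.84, edgeR adjusted p = 0.0443). Abcc4, an exporter of cAMP found beside Cftr, rose by 0.78 (adjusted p = 0.00858), whereas Adcy6, an adenylyl cyclase, fell from 299 ± 15.3 to 229 ± 18.9 CPM (adjusted p = 0.00867). The chloride transporter Slc26a9, at 0.538, 0.275 and 0.629 CPM in WT, had 1.43, 6.59 and 3.51 CPM in the libraries labelled double knockout (adjusted p = 0.0237). On the absorptive side 4 of 8 genes rose and 1 fell. Slc26a3, the apical chloride-bicarbonate exchanger, went from 100.3 ± 9.09 to 182 ± 63.7 CPM (adjusted p = 0.0155), and the kinase Sgk1, which activates the epithelial sodium channel, from 2.31 ± 0.444 to 8.86 ± 2.76 CPM (adjusted p = 0.00125). Scnn1a, the alpha subunit of that channel, rose by 0.57 (adjusted p = 0.0388), and missed the threshold with reads of both strands (adjusted p = 0.0512).

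Transcription factors with known sites at the Cftr locus fell in 6 of 13 cases in the libraries labelled double knockout and rose in 0, with a median log2 fold change of -0.35. Foxa3 fell from 39.5 ± 2.11 to 28.4 ± 4.49 CPM (log2 fold change -0.48, standard error 0.12, edgeR adjusted p = 0.0226). Cdx2, Foxa2 and Klf5 were among those that fell. Hnf4a, a regulator of enterocyte genes, had 1111 ± 26.4 CPM in WT and 936 ± 143 CPM in the double knockout and did not pass (adjusted p = 0.248). In Cdk8-/- 0 of 13 passed with edgeR, and 5 had an unadjusted p-value under 0.05.

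These lists were counted again without both libraries at the WT level of Cdk19, an alternative chosen after seeing the data, in a fit where 19.0% of all genes were called in the double knockout. Higher and lower were then 6 and 1 of 22 other chloride channels, 3 and 0 of 10 other potassium channels, 2 and 1 of 13 cotransport genes and 7 and 0 of 25 scaffold and quality control genes. They were 5 and 1 of 28 second messenger genes, 4 and 1 of 8 absorptive genes, 0 and 6 of 13 transcription factors and 0 and 0 of 5 pump subunits. Of the genes of these lists named above as called in the double knockout, Wnk2 (log2 fold change -0.27, adjusted p = 0.115), Scnn1a (0.57, adjusted p = 0.0605) and Foxa3 (-0.41, adjusted p = 0.0561) did not pass there, with the same direction as over all 12 libraries. Of the cell type markers, 4 of 6 Paneth, 6 of 8 enterocyte and 3 of 7 goblet cell markers were higher, and 4 of 6 stem, 2 of 5 cycling and 3 of 4 tuft cell markers lower.

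In Cdk19-/- edgeR called 0 genes of the pathway lists over all 12 libraries. Without both libraries it called 2 lower of 10 other potassium channels, 1 higher of 25 scaffold and quality control genes, 1 higher and 3 lower of 28 second messenger genes and 1 lower of 8 absorptive genes, beside 4.21% of all genes, with 3 of 6 stem cell markers higher and 4 of 8 enterocyte and 2 of 7 goblet cell markers lower. In Cdk8-/-, where 5.15% of all genes were called, other chloride channels had 0 higher and 1 lower of 22 tested, other potassium channels 2 higher and 0 lower of 9, sodium pump subunits 0 higher and 0 lower of 5 and cation-chloride cotransport with its kinases 0 higher and 1 lower of 11. Scaffold and quality control genes had 2 higher and 0 lower of 25, second messenger control 2 higher and 1 lower of 28 and sodium chloride absorption 1 higher and 0 lower of 8.

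Inhibition of both kinases by Senexin B was compared with DMSO at each time. Cftr had 96.8, 129.6 and 111 CPM with DMSO and 111, 124 and 126 CPM with Senexin B at 16 h, and 126, 129 and 139 and 119.7, 107 and 119 CPM at 24 h. The groups overlapped at 16 h (log2 fold change 0.097, standard error 0.094, edgeR adjusted p = 0.605). At 24 h all 3 Senexin B libraries were below all 3 DMSO libraries, at 0.877 of the DMSO level, without passing (log2 fold change -0.19, standard error 0.094, edgeR adjusted p = 0.151). With the replicate number as a block the adjusted p at 24 h was 0.0868, and it was 0.0460 when only these 2 groups were fitted. The difference between the effects at 24 h and 16 h was -0.29 on the log2 scale (standard error 0.13, edgeR adjusted p = 0.385).

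With Senexin B, 3 of 9 genes rose at 16 h and 0 fell, beside 7.75% of all genes deregulated (4.36% higher and 3.39% lower). At 24 h 5 of 9 rose and 0 fell, beside 27.5% of all genes (14.8% higher and 12.7% lower). With the replicate number as a block, though pairing by number is not certain, 4 of 9 rose at 16 h and 5 of 9 at 24 h. Of all genes, 14.8% and 36.9% were then deregulated in either direction. Median log2 fold changes of the set were 0.13 and 0.30, against -0.0062 and 0.0011 over all genes tested.

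Ano1 rose most. It had 27.6, 24.4 and 26.6 CPM with DMSO and 38.4, 45.0 and 52.2 CPM with Senexin B at 16 h, and 42.5, 36.3 and 38.4 and 64.1, 80.2 and 75.4 CPM at 24 h, with no overlap at either time. This was 1.73-fold at 16 h (log2 fold change 0.79, standard error 0.11, edgeR adjusted p = 0.000677) and 1.87-fold at 24 h (log2 fold change 0.91, standard error 0.11, edgeR adjusted p = 8.77e-05), and both calls held with each library left out. Slc12a2, the chloride entry gene, had 676, 991 and 909 CPM with DMSO and 1232, 1306 and 1383 CPM with Senexin B at 16 h. At 24 h it had 1002, 923 and 1062 and 1484, 1253 and 1308 CPM, and again every treated library was above every control. It rose by 0.61 at 16 h (standard error 0.12, edgeR adjusted p = 0.00529) and by 0.44 at 24 h (standard error 0.12, adjusted p = 0.0128) on the log2 scale. The latter adjusted p was 0.0543 without DMSO 24 h replicate 2.

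Of the potassium channel genes, Kcnn4 rose at both times and Kcne3 at 24 h. Kcnn4 had 109, 111 and 117 CPM with DMSO and 139, 145 and 131 CPM with Senexin B at 16 h, and 86.2, 104 and 101 and 138, 151 and 151 CPM at 24 h, without overlap. It rose by 0.30 (standard error 0.076, edgeR adjusted p = 0.0250) and by 0.59 (standard error 0.076, adjusted p = 0.000129) on the log2 scale, of which the call at 16 h was lost, with adjusted p-values of 0.0721 to 0.0955, without DMSO replicate 2, Senexin B replicate 1 or Senexin B replicate 2. Kcne3 had 23.6, 24.4 and 28.2 CPM with DMSO and 34.7, 29.4 and 30.3 CPM with Senexin B at 16 h, and 16.8, 15.8 and 16.6 and 24.2, 21.6 and 18.7 CPM at 24 h. Treated libraries were above controls at each time, and the gene passed at 24 h (log2 fold change 0.39, standard error 0.10, edgeR adjusted p = 0.0144) but not at 16 h (adjusted p = 0.0794). With the replicate block it passed at 16 h as well (adjusted p = 0.0363), and without DMSO replicate 2 or Senexin B replicate 1 the adjusted p at 24 h was 0.0506 or 0.0615. Kcnq1 had 276 ± 9.58 CPM with DMSO and 298 ± 12.8 CPM with Senexin B at 24 h (SD, n = 3), with log2 fold changes of 0.13 and 0.11 at 16 h and 24 h and adjusted p-values of 0.262 and 0.234.

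The pump subunit Atp1b1 had 836, 795 and 837 CPM with DMSO and 951, 1044 and 1052 CPM with Senexin B at 24 h, and rose (log2 fold change 0.30, standard error 0.06, edgeR adjusted p = 0.00227). At 16 h it had 880.0, 865 and 890.4 and 917, 917 and 965 CPM and did not pass (log2 fold change 0.087, adjusted p = 0.433). Slc9a3r1, which rose in the double knockout, had 197, 149 and 158 CPM with DMSO and 167, 161 and 159 CPM with Senexin B at 16 h, and 162, 163 and 152 and 162, 152 and 163 CPM at 24 h. The groups overlapped, and at 24 h its log2 fold change was -0.0012 with a standard error of 0.087. Clcn2 overlapped as well, between 70.0 and 98.1 CPM over the 12 libraries. Side by side with the double knockout, Slc12a2 was -0.13 there and 0.44 with Senexin B at 24 h, Kcnq1 -0.45 and 0.11, Kcne3 1.41 and 0.39, and Slc9a3r1 0.79 and -0.0012 on the log2 scale, from experiments that differ in genotype, RNA selection and duration and were not tested against each other.

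**Figure D4:**
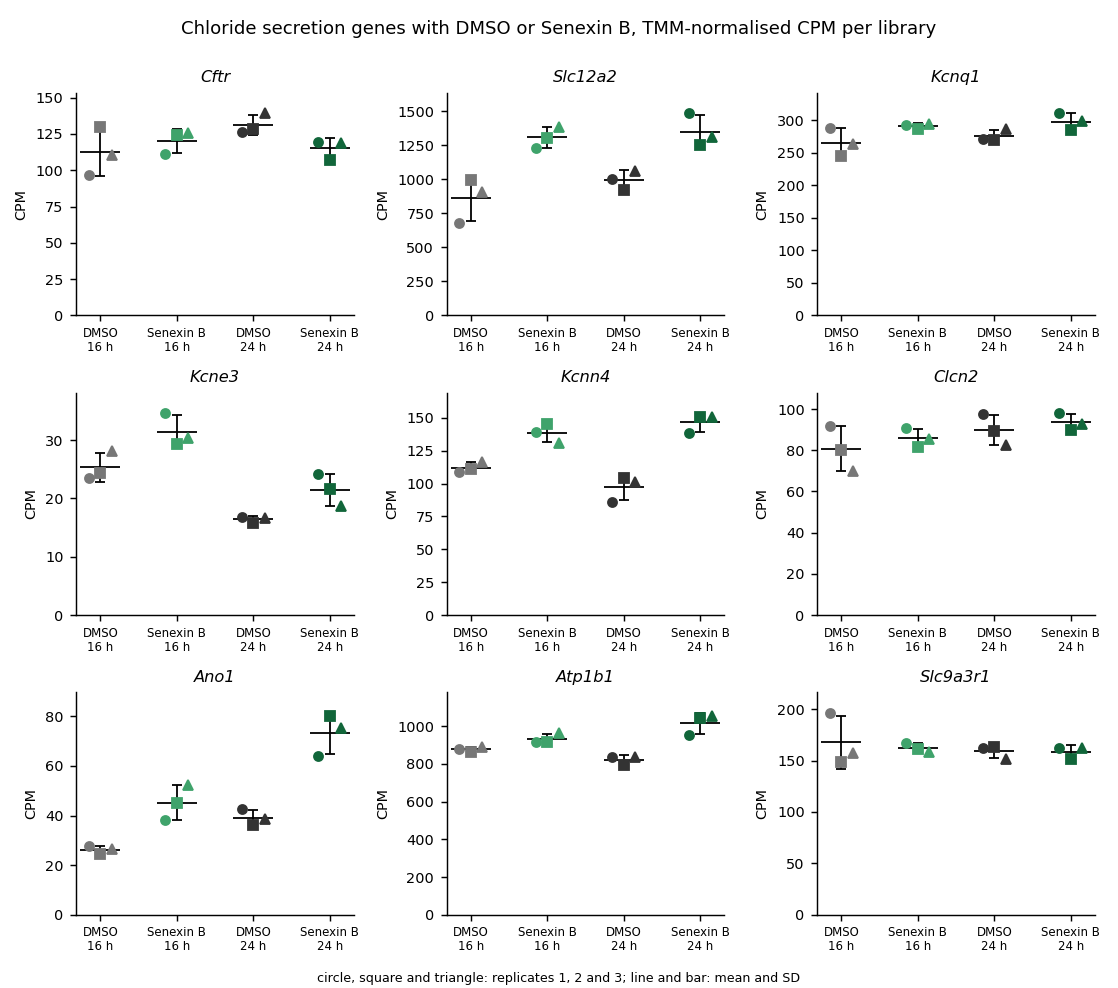
TMM-normalised CPM (y axes, starting at 0) of the 9 genes in each of the 12 libraries with DMSO or Senexin B at 16 h and 24 h, with means and SD of 3 libraries. Treated libraries lie above controls at both times for Slc12a2, Kcne3, Kcnn4, Ano1 and Atp1b1, while Cftr overlaps at 16 h and lies below at 24 h.

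The test of the effect at 24 h against that at 16 h was passed by 0 of 9 genes with edgeR, beside a background of 0%, with the replicate block, beside 0.388%, and with DESeq2, beside 0.487%. In the fit without the block 3 members had an unadjusted p-value under 0.05. These were Cftr, Kcnn4 (0.29 on the log2 scale, standard error 0.11) and Atp1b1 (0.22, standard error 0.085). In DMSO alone, 2 of 9 genes differed between 24 h and 16 h, beside 11.1% of all genes. The replicate block, for which correlations in these groups gave no ground, added Kcnn4 (edgeR adjusted p = 0.0332), beside 21.2%. Ano1 was higher at 24 h (log2 fold change 0.58, standard error 0.11, edgeR adjusted p = 0.00769) and Kcne3 lower (log2 fold change -0.63, standard error 0.10, edgeR adjusted p = 0.00397), so both also differed with time in the controls. Of markers tested, 2 of 6 enteroendocrine, 1 of 7 goblet, 1 of 2 interstitial and 1 of 3 fibroblast ones were higher as well. Lower were 1 of 6 stem, 1 of 5 cycling and 1 of 8 enterocyte markers. The part of cell composition in these 2 changes was not tested. The ratio of Kcne3 to Kcnq1 per kb was 0.221 ± 0.0296 and 0.137 ± 0.00511 in DMSO and 0.248 ± 0.0205 and 0.166 ± 0.0191 in Senexin B, at 16 h and 24 h.

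Cell type markers with Senexin B, counted in the fit without the block, stand beside 7.75% of all genes called at 16 h and 27.5% at 24 h. Absorptive enterocyte markers rose in 1 and fell in 1 of 8 cases at 16 h, and rose in 3 and fell in 1 at 24 h, when they summed to 2988 to 3541 CPM in DMSO and 2987 to 3223 CPM in Senexin B. Of 5 cycling cell markers 0 rose and 0 fell at 16 h, and 1 and 0 at 24 h. Paneth cell markers, which rose in the Cdk8-/- and double knockout libraries, fell with Senexin B in 2 of 6 cases at 16 h and 5 of 6 at 24 h, when they summed to 2866 to 3069 CPM in DMSO and 1304 to 1774 CPM in Senexin B. Goblet cell markers rose in 4 of 7 cases at 16 h and 5 of 7 at 24 h, with 1 that fell, Fcgbp, while their sum was lower with Senexin B at 24 h, at 3238 to 3747 CPM in DMSO and 2848 to 3179.7 CPM. Fcgbp held most reads of that list. Tuft cell markers rose in 3 of 4 tested cases at 24 h, and enteroendocrine markers at 16 h and 24 h in 3 and 4 of 6. Of 6 stem cell markers Slc12a2 itself rose and Lgr5 fell at both times, Lgr5 by 0.47 at 16 h (adjusted p = 0.0285) and 0.97 at 24 h (adjusted p = 0.000112) on the log2 scale. The part of cell composition in the rises of Ano1, Slc12a2, Kcnn4 and Kcne3 was not tested.

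Of the pathway lists, second messenger control had 4 of 26 genes higher and 0 lower at 16 h, and 3 higher and 1 lower at 24 h. These and the list counts that follow come from the fit without the block and stand beside 7.75% of all genes called at 16 h and 27.5% at 24 h. Receptors that raise cAMP were among them. Ptger4, a receptor of prostaglandin E2, rose from 20.3 ± 1.38 to 29.8 ± 1.79 CPM at 16 h (log2 fold change 0.56, edgeR adjusted p = 0.00237) and by 0.29 (adjusted p = 0.0371) at 24 h. Vipr1, a receptor of vasoactive intestinal peptide, rose from 95.5 ± 5.38 to 136 ± 9.49 CPM at 24 h (log2 fold change 0.51, standard error 0.12, edgeR adjusted p = 0.00787). The cAMP phosphodiesterase Pde4d rose by 0.55 (adjusted p = 0.00268) at 16 h and 0.39 (adjusted p = 0.00631) at 24 h, while its relative Pde4a, at 3.44 ± 1.52 CPM in DMSO, had 1.23 ± 0.487 CPM at 24 h (adjusted p = 0.00357).

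Other chloride channels gave 1 higher and 1 lower of 22 at 16 h, and 2 higher and 6 lower at 24 h. Clca1, a secreted protein of goblet cells that acts on calcium-activated chloride current, rose from 111 ± 6.35 to 217 ± 29.4 CPM at 24 h (log2 fold change 0.96, standard error 0.13, edgeR adjusted p = 0.000199) and by 0.85 at 16 h (adjusted p = 0.00127). Its relatives Clca4a and Clca4b fell at 24 h, by 1.69 (adjusted p = 0.000942) and 0.78 (adjusted p = 0.00106) on the log2 scale. Lrrc8a, the required subunit of the volume-regulated anion channel, rose by 0.55 (adjusted p = 0.0140), and the endosomal Clcn3 fell by 0.45 (adjusted p = 0.00167) at 24 h, as did Clcn4 at 16 h (log2 fold change -0.31, adjusted p = 0.0155).

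Among genes that handle Cftr protein, 0 of 25 passed at 16 h in either direction with edgeR, where 5 had an unadjusted p-value under 0.05. At 24 h 2 were higher and 3 lower. Ahsa1, a co-chaperone of Hsp90, rose by 0.41 (adjusted p = 0.00145) and Stub1, a ubiquitin ligase of misfolded proteins, by 0.31 (adjusted p = 0.0164). Myo6, a motor of endocytosis, fell from 376 ± 16.0 to 289.8 ± 5.71 CPM (adjusted p = 0.00100), the PDZ scaffold Pdzd3 by 0.77 (adjusted p = 0.0195) and Gopc, a Golgi protein that directs Cftr to degradation, by 0.33 (adjusted p = 0.0468) on the log2 scale. The adjusted p of Gopc was 0.0759 with reads of both strands. Slc12a9 fell by 0.24 (adjusted p = 0.0471), a call lost on that count (adjusted p = 0.0693).

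Absorptive genes rose in 2 of 7 cases at 16 h, Slc9a2, a sodium-proton exchanger, by 0.49 (edgeR adjusted p = 0.00127) and Slc26a3 by 0.33 (adjusted p = 0.00737) on the log2 scale, and Slc9a2 again at 24 h by 0.26 (adjusted p = 0.0215). Sodium pump subunits had 0 of 5 passing in either direction at 16 h with edgeR and 0 with an unadjusted p-value under 0.05, and at 24 h Atp1b1 rose and Fxyd5, named after its values were seen, fell. Potassium channels outside the set gave 0 calls at 16 h with edgeR, with 2 of 6 at an unadjusted p-value under 0.05, and 1 higher and 1 lower at 24 h, Kcnk6 and Kcnma1, also named after their values were seen. Of the transcription factors, Klf5, which fell in the double knockout (log2 fold change -0.38, standard error 0.097, edgeR adjusted p = 0.0207), rose with Senexin B from 322 ± 18.5 to 423 ± 2.68 CPM at 16 h (log2 fold change 0.40, adjusted p = 0.00315) and by 0.30 at 24 h (adjusted p = 0.00716). Cdx1 rose by 0.24 at 24 h (adjusted p = 0.0450), and no other factor on the list passed at either time.

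Genes whose level followed that of Cftr over libraries were sought among 10251 genes tested in both experiments. Likeness was the lower of the Pearson correlations of log2 CPM with Cftr over the 12 libraries of each experiment. These correlations describe points that share libraries, groups and normalisation. Utrn, which encodes utrophin, was nearest, with 0.85 over the genotype and 0.93 over the Senexin B libraries. Eml4 (0.81 and 0.81), Chd7 (0.80 and 0.79), Fancm (0.76 and 0.84) and Atp13a3 (0.76 and 0.82) came next. Utrn had 278, 280.1 and 242 CPM in WT and 169, 175 and 221 CPM in the libraries labelled double knockout, a pattern it was chosen for and which is given without a test. Its exons span 17108 bases, and those of the other 4 genes 6038 to 13786, against 7765 for Cftr and a median of 4560 for the genes compared, so all 5 were longer than that median. Within the set, Cftr correlated with Slc9a3r1 at -0.89 over the genotype libraries and -0.67 over the Senexin B libraries, and with Kcnq1 at 0.78 and -0.22.

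**Figure D5:**
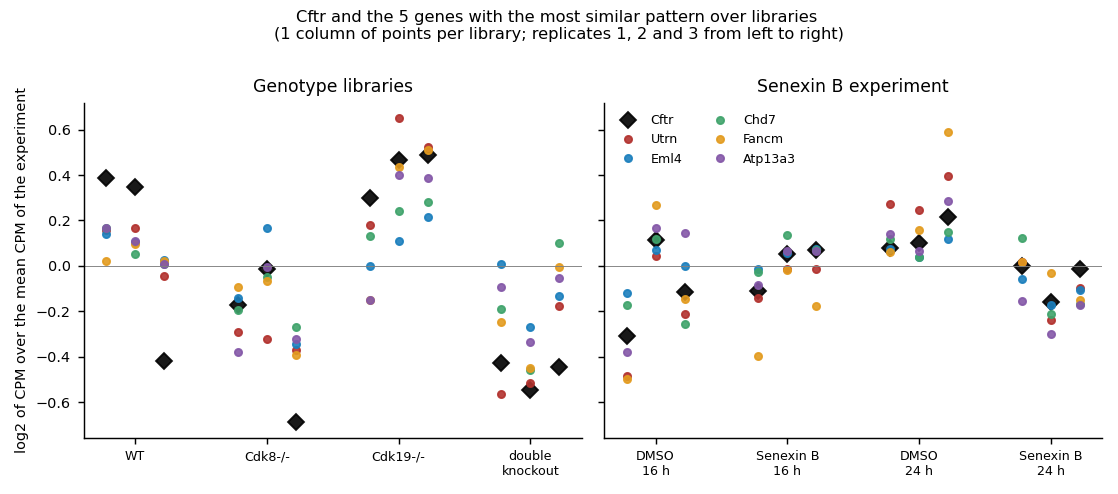
Log2 of CPM over the mean CPM of the experiment (y axis) for Cftr (diamonds) and the 5 genes whose pattern was most like it (circles), with 1 column of points per library. Cftr is high in Cdk19-/- and low in the double knockout, and it lies below the other 5 genes in WT replicate 3 and Cdk8-/- replicate 3, among others.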

How the data were processed

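RNA-seq of 24 organoid libraries was analysed. Per the labels, reads were aligned with STAR 2.6.0c to GRCm38.p6 after FastQC. The study's methods name single-end reads, Ensembl gene models and DESeq2. The authors deposited raw counts of reads per gene, without normalisation, in an unstranded column and a column per strand. The second strand column was used. It held 49.6 to 49.7% of stranded reads in the genotype libraries, which thus carry no strand information, and 87.9 to 90.5% in the Senexin B libraries. In the former, exons of Cftr (Gm15592), Kcnq1 (Kcnq1ot1), Kcne3 (Gm34821), Clcn2 (Fam131a and Polr2h) and Atp1b1 (Nme7) overlap these genes on the opposite strand and may hold part of their reads. Reads without a gene in that column, 63.1 to 65.2% and 21.5 to 25.1% of reads, stayed out of library sizes and tests; in the genotype libraries they include reads on genes that fall in the other strand column. Symbols and positions came from GENCODE vM21 (GRCm38), which covers 54079 of the 54146 genes.

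Groups followed the labels. Counts were filtered with filterByExpr, normalised with TMM and fitted in 1 model of 12 libraries per experiment with edgeR 4.0.16 in R 4.3.3 (glmQLFit and glmQLFTest, two-sided), which left 15602 and 15467 genes. P-values were adjusted over all of them. CPM values and their SD were computed from the normalised library sizes, log2 CPM used a prior count of 2, and the standard error of a log2 fold change is its size over the root of the F statistic. Each p-value measures the spread between 3 libraries a group. The 9 genes, the pathway and marker lists and the rule for named genes were chosen with earlier results of these data known. The rule took all 9 genes, from each other pathway list up to 3 rises and 3 falls of largest size among deregulated genes, given non-overlapping groups and 1 CPM or more on average, and the 5 genes most like Cftr among those with a mean of at least 5 CPM in both experiments.

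Other settings tried were edgeR with size factors of DESeq2 1.42.0, its own Wald test, leaving the filter out, requiring 10 counts or more throughout, the unstranded column, the replicate number as a block, only the 2 groups compared, leaving out each library in turn and leaving out both libraries with Cdk19 at the WT level. Correlations of same-numbered deviations from group means were all above 0.1 for Senexin B at 16 h (0.303, 0.101, 0.110) and 24 h (0.377, 0.137, 0.187). In no genotype comparison, nor in DMSO between the times, were they all above it. The highest correlation between different numbers was 0.154 at 16 h and 0.147 at 24 h, above some of the same-numbered ones. Whether the numbers pair the Senexin B libraries is thus not settled, and any pairing rests on these correlations alone. Some genes that the rule names are not reported here. Both fits were first tested on simulated counts with known changes. Plots used matplotlib 3.10.9 and Python 3.11.15.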

Additional observations from a re-analysis of the deposited data

Results flagged for a closer look

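The Senexin B libraries are stranded, and the column used above held 87.9 to 90.5% of all their stranded reads. The column for the other strand is outside the main measurement, and its reads enter above only where reads of both strands were counted. It held 2.88 to 12.8% of the stranded reads of the 9 genes. That column was tested in the same way over 13248 genes, of which 218 passed at 16 h and 1425 at 24 h, and some members were higher with Senexin B than in the DMSO controls. At 16 h the opposite-strand reads of Slc12a2 differed by 0.62 on the log2 scale (edgeR adjusted p = 0.0150) and those of Ano1 by 0.75 (adjusted p = 0.00671). At 24 h the differences were 0.50 for Slc12a2 (adjusted p = 0.0216), 0.70 for Kcnn4 (adjusted p = 0.00364) and 0.90 for Ano1 (adjusted p = 0.000285). On the strand used above, the same genes differed by 0.61 and 0.79 at 16 h and by 0.44, 0.59 and 0.91 at 24 h. None of the exons of these 3 genes overlaps a gene annotated on the opposite strand. The cause was not tested.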

How the results depend on the processing

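Kcne3 and Slc9a3r1 in the double knockout, Kcne3 in Cdk8-/- and Ano1, Kcnn4 and Atp1b1 with Senexin B at 24 h stayed called under each alternative run. For Cftr in the double knockout the log2 fold change was -0.61 with the Wald test of DESeq2, -0.63 with no filter, -0.62 with at least 10 counts in every library and -0.62 with the unstranded column, all now past the threshold (adjusted p of Cftr 0.00277 to 0.0494), and -0.83 to -0.49 with each library left out, past it only without WT replicate 3. For Cftr with Senexin B at 24 h it was -0.20, past the threshold, with only the 2 groups compared, and at 16 h it ran from -0.00041 to 0.21 with each library left out. Counts of the 9 genes called that changed are given with the share of all genes in the same fit, or its range where each library was left out. With DESeq2 they were 2 in Cdk8-/- (7.84%), 4 in the double knockout (18.6%), 8 between double knockout and Cdk19-/- (25.7%) and 3 beyond the sum of the single knockouts (3.45%). With no filter they were 4 in the double knockout (9.71%), 6 between double knockout and Cdk19-/- (13.8%) and 1 beyond the sum (1.90%). In the double knockout at least 10 counts in every library gave 4 (19.1%), the unstranded column 5 (18.3%) and only the 2 groups compared 4 (18.6%), which also gave 6 with Senexin B at 24 h (30.7%). Leaving out the libraries at the WT level of Cdk19 is given in the report. With each library left out counts ran from 1 to 2 in Cdk8-/- (1.23 to 4.39%) and 2 to 4 in the double knockout (8.47 to 15.4%). The latter gave 2 without WT replicate 2 (9.13%) and 4 without WT replicate 3 (11.3%). Between double knockout and Cdk19-/- they ran from 5 to 6 (15.1 to 27.1%), and between double knockout and Cdk8-/- from 0 to 2 (0.0188 to 5.28%). Beyond the sum they were 0 to 2 (0 to 2.93%). With Senexin B they were 2 to 3 at 16 h (4.18 to 11.6%) and 3 to 5 at 24 h (16.9 to 24.2%), and in DMSO between the times 2 to 3 (2.75 to 14.6%). The cause was not tested.

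In the genotype comparisons the correlations did not show that replicate numbers mark pairs. The replicate block gave 1, 0 and 3 calls in Cdk8-/- (4.54% of all genes), Cdk19-/- (0%) and the double knockout (16.8%), the same numbers as without it, and 6 instead of 5 between double knockout and Cdk19-/- (Ano1 added, 25.1%). With Senexin B, where pairing is not certain, the block gave 4 calls at 16 h (Kcne3 added) and 5 at 24 h. It changed no other call there, while the shares of all genes called were 14.8% and 36.9%. In DMSO between the times, where a same-numbered correlation was -0.0503, the block gave 3 (Kcnn4 added, 21.2%).

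Of 1305 pairs of a gene of the set and an alternative, the sign of the log2 fold change turned in 49, of which 0 were called in either setting, the largest at 0.29 in size. Mean levels moved by more than 1 SD in 28 of 144 cases. Counts over a gene cannot show an exon deletion. With 3 libraries a group a log2 difference near 0.3 in Clcn2, with a standard error of 0.10, did not pass in the main fit. It passed in 2 of 14 alternatives.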
